A study of Mus musculus with 6 samples.

Results

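The BCL2 family genes described here are 10 regulators of the mitochondrial pathway of apoptosis, namely Bcl2, Bcl2l1, Mcl1, Bcl2a1b, Bcl2a1d, Bax, Bak1, Bcl2l11, Bad and Bid. Every probe whose gene symbol, current or former, was a listed member was taken, which gave 19 of the 45281 probes of a mouse Illumina expression array. These 19 probes covered 9 of the 10 genes, and Bax was not analysed here. The arrays measured total RNA of transferred T helper cells, recovered 12 days later from the spleens of mice bearing tumours by sorting for CD45.1 and CD4. The 3 kinds of cell were Th9, Th17 and Th1, with 2 arrays each and 6 arrays in all. All came from mice labelled as C57BL/6 and from the same organ, day and sort, and the labels set the kinds apart by the T helper subset alone. The labels state neither the tumour, nor how the subsets were polarised before transfer, nor whether the arrays of a kind came from separate mice, so p-values rest on a spread between arrays that may be technical.

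BCL2 family proteins decide whether the outer mitochondrial membrane is opened to release cytochrome c, the step that commits most cells to apoptosis. Anti-apoptotic members such as BCL2, BCL-XL, MCL1 and A1 hold back the effectors BAX and BAK, and BH3-only members such as BIM, BID and BAD bind the anti-apoptotic members or activate the effectors. In T cells, BIM drives much of the loss of activated cells after a response, while cytokine signals and antigen receptor signals sustain BCL2, MCL1 and A1.

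The A1 genes and Bcl2l11 set Th9 cells apart from both other kinds. Bcl2a1b and Bcl2a1d, 2 of the mouse gene copies that encode the anti-apoptotic protein A1, were highest in Th9 cells, by 2.94-fold and 2.96-fold over Th17 cells and by 1.93-fold and 1.70-fold over Th1 cells. Bcl2l11, which encodes the BH3-only protein BIM, was lowest in Th9 cells, 1.93-fold below Th17 cells and 1.99-fold below Th1 cells. Mcl1 was highest and Bid lowest in Th17 cells. Bcl2 had no call on its brightest probe in any comparison. A difference was called where limma gave an adjusted p under 0.05, with Benjamini-Hochberg adjustment over all probes tested.

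The sequences upstream of these genes are shown because the A1 copies are near duplicates, which may limit what their probes can tell apart, and because in Th9 cells they were high where Bcl2l11 was low. RefSeq windows of mouse build GRCm38.p6, from 250 bases before to 50 bases after the gene start, are printed 5′ to 3′ on the gene's strand, from chr9:89199023-89199322 (plus strand) for Bcl2a1b, chr9:88731801-88732100 (minus strand) for Bcl2a1d and chr2:128125788-128126087 (plus strand) for Bcl2l11. Capitals mark the matches described in the next paragraph.
Bcl2a1b: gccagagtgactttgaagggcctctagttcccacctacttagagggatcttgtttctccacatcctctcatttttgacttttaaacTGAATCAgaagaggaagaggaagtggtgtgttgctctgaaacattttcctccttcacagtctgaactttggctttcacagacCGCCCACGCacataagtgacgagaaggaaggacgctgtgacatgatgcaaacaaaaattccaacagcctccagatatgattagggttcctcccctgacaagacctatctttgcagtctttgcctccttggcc
Bcl2a1d: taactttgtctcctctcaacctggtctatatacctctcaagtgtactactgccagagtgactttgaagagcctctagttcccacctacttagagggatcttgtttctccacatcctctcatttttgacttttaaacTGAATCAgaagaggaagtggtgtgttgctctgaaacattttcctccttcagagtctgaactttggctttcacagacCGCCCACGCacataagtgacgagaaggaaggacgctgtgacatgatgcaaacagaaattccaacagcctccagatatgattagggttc
Bcl2l11: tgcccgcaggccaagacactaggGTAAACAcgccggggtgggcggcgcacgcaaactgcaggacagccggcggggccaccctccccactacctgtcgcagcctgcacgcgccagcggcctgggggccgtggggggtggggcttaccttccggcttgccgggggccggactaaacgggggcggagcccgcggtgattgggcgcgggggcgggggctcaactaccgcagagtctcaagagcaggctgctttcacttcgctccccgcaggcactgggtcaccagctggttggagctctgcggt

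Over 250 aligned bases, with gaps left out, 247 were the same in the Bcl2a1b and Bcl2a1d windows, an identity of 98.8%. Both windows held a match to the AP-1 motif as searched (TGANTCA), in both reading TGAATCA. It started 164 bases before the start in Bcl2a1b and 114 bases before it in Bcl2a1d. Both also held an EGR motif (GCGTGGGCG), here on the opposite strand. Of the further A1 copies, the Bcl2a1a window held the AP-1 match without the EGR match. The Bcl2a1c window held the EGR match without the AP-1 match. Of 2 Bcl2l11 windows, the one shown held a FOXO motif (GTAAACA) and the other held no match to any motif searched. The Mcl1 window held no match to the AP-1, EGR, FOXO, STAT (TTCNNNGAA) or kappaB motifs. Both strands were searched, and 7.81% of 32851 promoter windows of this length held AP-1, 0.612% EGR, 3.65% FOXO, 8.30% STAT and 8.46% kappaB. A match describes the letters in the window and is neither a binding site nor a cause.

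The deposited values were array intensities from which a background had been subtracted, on a linear scale and not scaled between arrays. Mean intensity ranged between 117.1 and 171.1 among the arrays, so fold changes were taken after quantile normalization, on a log2 scale with an offset of 50 that draws the fold changes of dim probes towards 0. A probe counted as above background on an array where it exceeded a noise limit set from the values below 0, which lay between 5.84 and 6.95 and was passed by 41.0% to 45.2% of probes. Of all probes, 22460 were above background on at least 2 arrays and were tested. Arrays of the same kind correlated across probes at r of 0.991 to 0.994 and arrays of different kinds at 0.971 to 0.981. Of 11 T cell markers 9 were tested, and all 4 of Cd3d, Cd3e, Cd3g and Thy1 were above background on all 6 arrays, between 2613.2 and 5359.8 in Th9 cells. Cd4, a marker of the sort, was dimmer, at 44.0 and 66.8 in Th9 cells, 85.8 and 94.1 in Th17 cells and 24.1 and 36.6 in Th1 cells. Gata3, a T helper factor that defines none of the 3 subsets, was brightest in Th9 cells, at 1103.9 and 1234.5, against 373.1 and 386.6 in Th17 cells and 130.8 and 93.2 in Th1 cells. Tbx21, the Th1 factor, had 9.1 and 1.5 in Th9 cells, 2.1 and -5.4 in Th17 cells and 56.2 and 54.2 in Th1 cells. Il9 was above background on 0 of the 6 arrays and Il17a on 1 array of each kind, so the cytokines named for the Th9 and Th17 subsets did not separate these RNAs.

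Of the 19 member probes, 18 were tested, and 1 of the 4 Bcl2l11 probes (ILMN_3078327) was not above background on any array. A further pair of probes, ILMN_1251112 of Bcl2 and ILMN_2757287 of Bid, were above background in 1 kind of cell only and were tested through it. In Th9 against Th1 cells, 3 member probes rose and 2 fell, 27.8% of the 18 tested, where 7.85% of all tested probes were called, 4.07% higher and 3.78% lower. The 3 that rose all read A1 copies and are not separate observations, and the 2 that fell both read Bcl2l11. In Th9 against Th17 cells, 5 rose and 3 fell, 44.4% of the members, against 14.9% of all probes, 7.44% higher and 7.5% lower. In Th17 against Th1 cells, 1 rose and 4 fell, 27.8% of the members, against 11.7% of all probes, 5.96% higher and 5.77% lower. The Bcl2 probe kept through Th1 alone is among the 4 that fell. A probe kept in this way passed the filter only where it was high, which favours a difference. Without that pair of probes, 16 remained, of which 3 rose and 2 fell in Th9 against Th1 cells, 5 rose and 3 fell in Th9 against Th17 cells, and 1 rose and 3 fell (25%) in Th17 against Th1 cells. The 3 comparisons share arrays, so their counts are not separate evidence. The members were also chosen with earlier results of these data known, so a share above that of all probes is not a test of the family. With each gene counted once by its brightest tested probe, 2 of 9 member genes rose and 1 fell in Th9 against Th1 cells, where 10% of 12093 genes were called, 5.41% higher and 4.64% lower. Those 2 were the A1 copies Bcl2a1b and Bcl2a1d. In Th9 against Th17 cells 4 member genes rose and 2 fell, against 18.2% of all genes called, 9.63% higher and 8.56% lower. In Th17 against Th1 cells 1 member gene rose and 3 fell, against 14.2% of all genes called, 7.11% higher and 7.05% lower. The median log2 difference over the member probes was 0.003 in Th9 against Th1 cells, 0.13 in Th9 against Th17 cells and -0.08 in Th17 against Th1 cells, against 0.008, -0.002 and 0.01 over all tested probes.

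**Figure D1:**
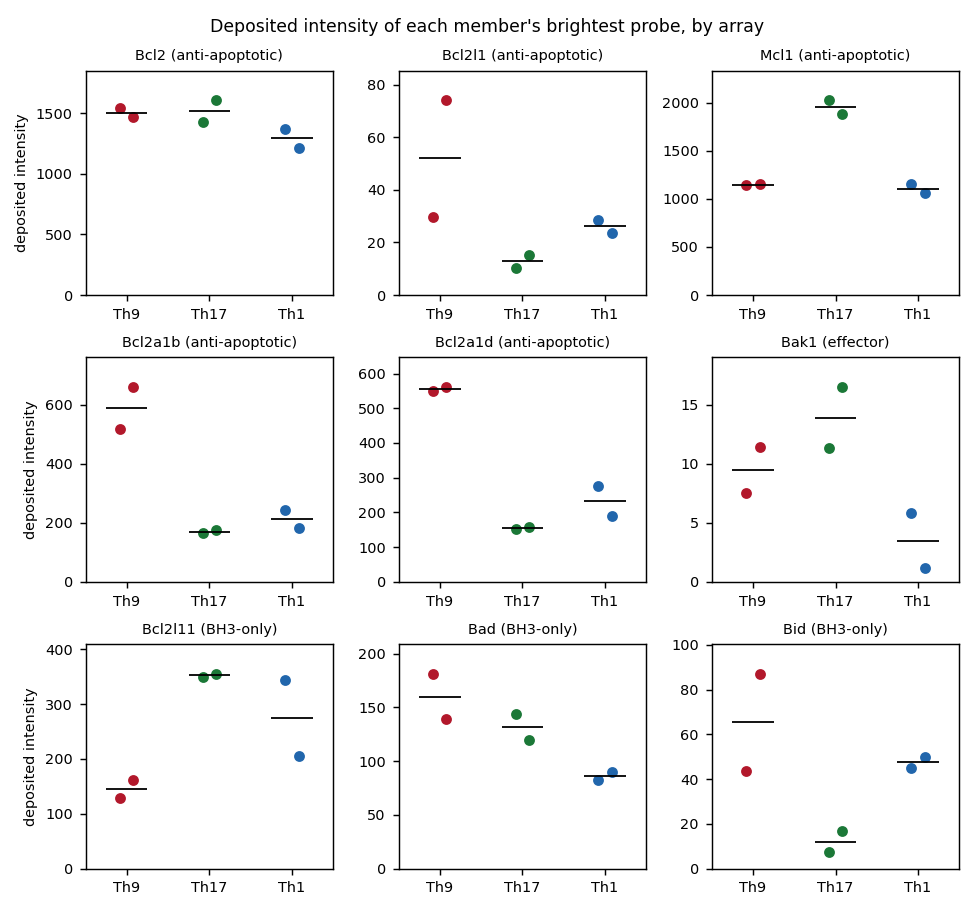
Deposited intensity (linear scale, background subtracted, not scaled between arrays) of the brightest probe of each of the 9 member genes, with 1 panel per gene, 1 point per array and a bar at the mean of the 2 arrays. Bcl2a1b and Bcl2a1d stand highest in Th9, Mcl1 in Th17, and the lowest points for Bcl2l11 are the Th9 arrays; the panels have separate axes and are not to be compared with each other.

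Bcl2a1b was read by ILMN_2660263, at 518.1 and 660.6 in Th9 cells, 163.9 and 177.0 in Th17 cells and 241.9 and 182.8 in Th1 cells. Every Th9 array lay above every Th17 and Th1 array. The log2 difference was 0.95 ± 0.11 (SE) for Th9 against Th1 cells (adjusted p = 5.53e-06), 1.55 ± 0.11 for Th9 against Th17 cells (adjusted p = 3.53e-09) and -0.61 ± 0.11 for Th17 against Th1 cells (adjusted p = 0.000728). In Th17 cells it was thus 1.52-fold lower than in Th1 cells.

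Bcl2a1d was read by the brighter ILMN_2660555 at 549.0 and 561.9 in Th9 cells, 152.3 and 159.2 in Th17 cells and 275.0 and 189.6 in Th1 cells. The order of the kinds was that of Bcl2a1b, with no overlap between Th9 arrays and the others. The log2 difference was 0.76 ± 0.11 for Th9 against Th1 cells (adjusted p = 0.00013), 1.57 ± 0.11 for Th9 against Th17 cells (adjusted p = 5.94e-09) and -0.80 ± 0.11 for Th17 against Th1 cells (adjusted p = 6.1e-05). A dimmer probe, ILMN_3006505, had 50.5 and 55.5 in Th9 cells, 8.2 and 7.8 in Th17 cells and 10 and 12.1 in Th1 cells. It too was highest on the Th9 arrays, with a log2 difference of 0.56 ± 0.11 from Th1 cells (adjusted p = 0.00136) and 0.69 ± 0.11 from Th17 cells (adjusted p = 8.41e-05), while Th17 and Th1 cells had no called difference on it (-0.13 ± 0.11, adjusted p = 0.528). Only the upstream windows of the copies were compared, and probe sequences were not available here. Which copy each probe measured is therefore uncertain, and the 3 probes are not 3 separate observations. Without background correction the 3 Th9 against Th1 differences stayed positive at 1.10, 0.88 and 1.84 but were not called (adjusted p = 0.0842, 0.154 and 0.0535), nor were the Th17 against Th1 differences of Bcl2a1b at -0.79 (adjusted p = 0.128) and of ILMN_2660555 at -1.05 (adjusted p = 0.0943). With median scaling in place of quantile normalization, the median over all tested probes moved to 0.11 for Th9 against Th1 and 0.13 for Th17 against Th1, and the Bcl2a1b difference of Th17 from Th1 cells was -0.27, or -0.39 relative to that median, and not called (adjusted p = 0.233).

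A1 is also made by B cells and myeloid cells, so markers of those cells are given beside it. Over 8 tested genes of 13 on the B cell and plasma cell list, summed intensity was 3765.9 and 4654.3 in Th9 cells, 1707.9 and 1568.4 in Th17 cells and 3036.9 and 2766.1 in Th1 cells. The order of the kinds was that of the A1 genes. In this list 2 genes rose and 1 fell in Th9 against Th1 cells, where 10% of all genes were called, 5 rose and 1 fell in Th9 against Th17 cells, against 18.2%, and 5 fell in Th17 against Th1 cells, against 14.2%. The gene that fell in Th9 cells in both comparisons was Ighm, at 630.5 and 705.5 in Th9 cells, 1139.7 and 1067.3 in Th17 cells and 784.9 and 803.8 in Th1 cells. Cd74 and Cd79b were called in the order of the A1 genes in all 3 comparisons. Their log2 differences were 1.01 and 0.45 for Th9 against Th1 cells. They were 2.80 and 1.56 for Th9 against Th17 cells, and -1.79 and -1.11 for Th17 against Th1 cells. H2-Aa and H2-Ab1 were higher in Th9 than in Th17 cells (1.67 and 0.94) and lower in Th17 than in Th1 cells (-1.50 and -0.81). Igkc had 1177.5 and 1600.5 in Th9 cells, 61.9 and 65.9 in Th17 cells and 1089.3 and 952.3 in Th1 cells. Igkc, H2-Aa and H2-Ab1 were not called in Th9 against Th1 cells. Pax5 and Blnk were above background on 0 arrays and Ms4a1 on 1. Over 6 tested genes of 15 on the myeloid list, the sums were 225.0 and 196.8 in Th9 cells, 226.5 and 197.9 in Th17 cells and 176.3 and 125.4 in Th1 cells, and S100a8, S100a9, Itgam, Itgax, Ngp and Cd14 were above background on 0 arrays. Adgre1, a macrophage marker, had 34.1 and 21.3 in Th9 cells, -0.1 and 0 in Th17 cells and 0.9 and -0.2 in Th1 cells. Red cell and platelet genes, 7 tested of 10, summed to 656.9 and 673.1 in Th9 cells, 71.6 and 85.3 in Th17 cells and 45.0 and 37.4 in Th1 cells. Most of the Th9 sum was Hba-a1, at 544.2 and 582.6. Hba-a1 and Hbb-b1 were called higher in Th9 cells in both comparisons, and Klf1, Epor, Pf4, Ppbp and Itga2b were called in neither. The part of these other transcripts in the result was not tested, and in bulk RNA fewer cells of a type and less RNA per cell cannot be told apart.

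**Figure D2:**
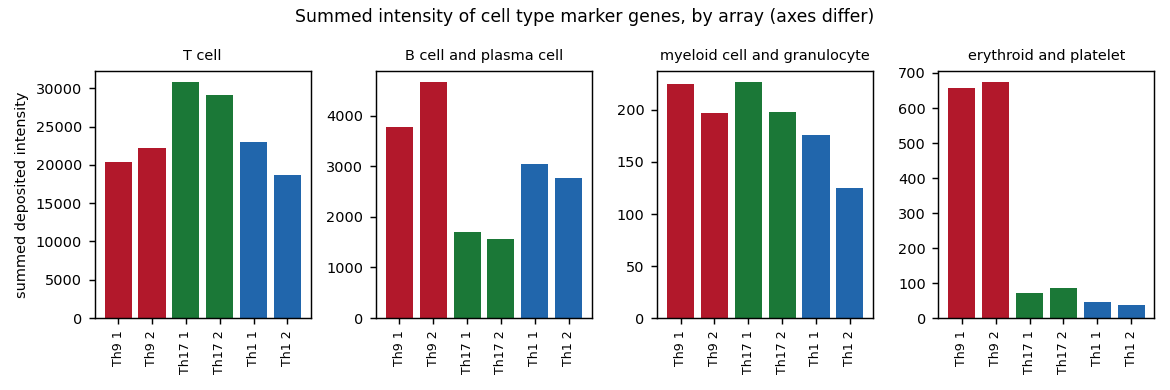
Summed deposited intensity (linear scale, not scaled between arrays, separate axes) of the tested genes of the marker lists by array, with 1 panel per list and 1 bar per array. The B cell and plasma cell sum is highest in Th9 and lowest in Th17, and the T cell sum is highest in Th17. The red cell and platelet sum is highest in Th9, where most of it is Hba-a1.

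Mcl1, whose short-lived anti-apoptotic product binds BIM and BAK, was the member that rose in Th17 cells. Its probe ILMN_1216732 had 1148.0 and 1150.6 in Th9 cells, 2030.9 and 1880.2 in Th17 cells and 1153.2 and 1061.0 in Th1 cells. Both Th17 arrays were above all others, and the Th9 and Th1 arrays lay close together. After normalization Th9 cells were 1.51-fold below Th17 cells (log2 difference -0.60 ± 0.11, adjusted p = 0.000635) and Th17 cells were 1.31-fold above Th1 cells (0.38 ± 0.11, adjusted p = 0.0268). Th9 and Th1 cells had no called difference (-0.21, 95% interval -0.44 to 0.02, adjusted p = 0.310). The Th17 against Th1 call was lost without Th1 replicate 1 (0.31, adjusted p = 0.132), without Th17 replicate 1 (0.38, adjusted p = 0.133), without Th17 replicate 2 (0.38, adjusted p = 0.152) and with an offset of 16 (0.39, adjusted p = 0.166). With median scaling the Th17 against Th1 difference was 0.75, or 0.62 relative to the median over all probes (adjusted p = 0.000626). T cell markers are given beside Mcl1. Over the 9 tested, summed deposited intensity, not scaled between arrays, was 20389 and 22181.1 in Th9 cells, 30770.8 and 29091.7 in Th17 cells and 22974.7 and 18716.2 in Th1 cells. In Th9 against Th17 cells 4 of them fell (Cd2, Cd28, Cd3d and Cd3e) and 0 rose, where 18.2% of all genes were called. At an unadjusted p under 0.05 in limma's test 7 fell and 0 rose, and the share of all genes at that limit is not given here. In Th17 against Th1 cells Cd2 and Cd4 rose and 0 fell, where 14.2% of all genes were called. The median log2 difference over the 9 markers was 0.18 there, with Thy1 (-0.09) and Ptprc (-0.14) below 0. In Th9 against Th1 cells Cd2 rose (0.41, adjusted p = 0.0199) and Ptprc fell (-0.41, adjusted p = 0.0225), while Mcl1 had no call. Over all genes 10% were called in that comparison. The part of the T cell markers in the Mcl1 result was not tested. Without background correction the Th9 against Th17 difference was -0.62 (adjusted p = 0.152) and the Th17 against Th1 difference 0.40 (adjusted p = 0.324).

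Bcl2l1 encodes BCL-XL, which protects activated T cells. Its brightest probe, ILMN_2698430, had 29.7 and 74.2 in Th9 cells, 10.4 and 15.3 in Th17 cells and 28.7 and 23.5 in Th1 cells. The Th17 arrays were the lowest, and the Th9 arrays differed from each other more than the Th1 arrays did. Th9 cells were 1.46-fold above Th17 cells (0.55 ± 0.13, adjusted p = 0.00526), and the differences of Th9 from Th1 cells (0.18 ± 0.13, adjusted p = 0.514) and of Th17 from Th1 cells (-0.37 ± 0.13, adjusted p = 0.0708) were not called. The Th9 against Th17 call was lost without Th9 replicate 2 (0.32, adjusted p = 0.170), without Th17 replicate 1 (0.48, adjusted p = 0.0784) and, at 1.90, with no background correction (adjusted p = 0.132). The Th17 against Th1 difference was called without Th9 replicate 1 (adjusted p = 0.0377), without Th9 replicate 2 (adjusted p = 0.0393) and with the Th9 arrays left out of the fit (adjusted p = 0.0375). The other Bcl2l1 probes, ILMN_2647885 and ILMN_2742557, lay between -2.2 and 21.6 on all arrays and were not called.

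Bcl2 itself, the family's founding anti-apoptotic member and a target of IL-7 signals in T cells, was bright in all 3 kinds. ILMN_1249021 had 1543.6 and 1465.7 in Th9 cells, 1427.2 and 1608.5 in Th17 cells and 1369.4 and 1211.5 in Th1 cells. After normalization the kinds overlapped, and the log2 difference was -0.01 (95% interval -0.26 to 0.25, adjusted p = 0.991) for Th9 against Th1 cells, 0.14 (-0.11 to 0.40, adjusted p = 0.551) for Th9 against Th17 cells and -0.15 (-0.41 to 0.11, adjusted p = 0.531) for Th17 against Th1 cells. These intervals leave room for changes of up to 0.41 on the log2 scale, and both differences from Th1 cells turned sign with median scaling, at 0.18 for Th9 and 0.18 for Th17, or 0.07 and 0.06 relative to the median over all probes. The Th9 against Th17 difference was -0.004 with median scaling and 0.02 relative to that median.

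A second bright Bcl2 probe, ILMN_2682162, had 762.4 and 939.9 in Th9 cells, 880.8 and 674.2 in Th17 cells and 761.7 and 718.5 in Th1 cells, with no call and a Th17 against Th1 difference of -0.32 ± 0.12 (adjusted p = 0.0939). The dim ILMN_1251112 had 2.4 and 1.7 in Th9 cells, -3.2 and -2.0 in Th17 cells and 13.1 and 10 in Th1 cells, and was above background only in Th1 cells. Its difference of Th17 from Th1 cells was called, with a bound of at least 1.12-fold lower (adjusted p = 0.0271). The probe passed the filter only where it was high, which favours such a difference, and nothing is drawn from this call. That call was lost without Th1 replicate 1, Th1 replicate 2, Th17 replicate 1 or Th17 replicate 2, with adjusted p values between 0.0506 and 0.167, and with median scaling (-0.34, or -0.46 relative to the median over all probes, adjusted p = 0.0624). The remaining Bcl2 probe, ILMN_2500078, lay between -2.3 and 12.2 and was not called.

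Of the effectors, only Bak1, which forms membrane pores together with BAX, was measured. ILMN_2945835 had 7.5 and 11.4 in Th9 cells, 11.3 and 16.5 in Th17 cells and 5.8 and 1.2 in Th1 cells. It was not above background on either Th1 array, and at these intensities no difference was called (0.10, adjusted p = 0.691, for Th9 against Th1; -0.09, adjusted p = 0.723, for Th9 against Th17; 0.19, adjusted p = 0.329, for Th17 against Th1).

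Bcl2l11 was the BH3-only gene that was low in Th9 cells. Its brightest probe, ILMN_3157568, had 129.2 and 161.1 in Th9 cells, 349.2 and 355.4 in Th17 cells and 344.5 and 204.7 in Th1 cells. Both Th9 arrays lay below the other 4, while the Th1 arrays differed widely from each other. After normalization the log2 difference was -0.996 ± 0.12 for Th9 against Th1 cells (adjusted p = 1.22e-05) and -0.95 ± 0.12 for Th9 against Th17 cells (adjusted p = 1.18e-05). Th17 and Th1 cells had no called difference (-0.05, 95% interval -0.30 to 0.21, adjusted p = 0.883), and this sign turned with median scaling (0.30, or 0.17 relative to the median over all probes).

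A second Bcl2l11 probe, ILMN_2590638, had 12.9 and 26.6 in Th9 cells, 112.0 and 116.9 in Th17 cells and 45.5 and 55.7 in Th1 cells. The kinds did not overlap, and Th17 was highest. Th9 cells were 1.62-fold below Th1 cells (-0.69 ± 0.12, adjusted p = 0.000607) and 2.08-fold below Th17 cells (-1.06 ± 0.12, adjusted p = 2.41e-06). The probes thus gave the same direction for Th9, but differed on Th17 against Th1, which for ILMN_2590638 was 0.36 ± 0.12 (adjusted p = 0.0565), and was called with median scaling (0.63, or 0.50 relative to the median over all probes, adjusted p = 0.00326) and without Th1 replicate 2 (0.53, adjusted p = 0.0106). The third tested probe, ILMN_1229255, lay between -1.0 and 20.5 and was not called. Without background correction, the Th9 against Th1 differences were -1.28 on ILMN_3157568 (adjusted p = 0.102) and -1.93 on ILMN_2590638 (adjusted p = 0.128), and the Th9 against Th17 difference on ILMN_3157568 was -1.23 (adjusted p = 0.0717).

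Bid, which links death receptors to mitochondria once caspase-8 has cut its protein, was lowest in Th17 cells. ILMN_3161878 had 43.5 and 87.1 in Th9 cells, 7.3 and 16.8 in Th17 cells and 44.8 and 50.1 in Th1 cells. The Th17 arrays lay below the other 4, and the Th9 and Th1 arrays overlapped after normalization. Th9 cells were 1.66-fold above Th17 cells (0.73 ± 0.13, adjusted p = 0.000475) and Th17 cells 1.70-fold below Th1 cells (-0.77 ± 0.13, adjusted p = 0.000395), with no called difference of Th9 from Th1 cells (-0.04, 95% interval -0.31 to 0.23, adjusted p = 0.920). Without background correction neither call held (2.48, adjusted p = 0.124, for Th9 against Th17 and -2.58, adjusted p = 0.136, for Th17 against Th1). A dim second probe, ILMN_2757287, ran the other way, at 2.4 and 5.9 in Th9 cells, 16.3 and 9.7 in Th17 cells and 2.1 and 3.6 in Th1 cells, and was above background only in Th17 cells, with no call in any comparison.

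Bad, a BH3-only gene whose product is held inactive by survival kinases, was read by ILMN_1216802 at 181.3 and 138.8 in Th9 cells, 144.2 and 120.0 in Th17 cells and 82.8 and 90.1 in Th1 cells. The Th9 arrays differed from each other, and after normalization the kinds overlapped. The log2 difference was 0.30 ± 0.14 for Th9 against Th1 cells (adjusted p = 0.244), 0.24 ± 0.14 for Th9 against Th17 cells (adjusted p = 0.315) and 0.06 ± 0.14 for Th17 against Th1 cells (adjusted p = 0.864). The Th9 against Th1 difference was called with median scaling (0.55, or 0.45 relative to the median over all probes, adjusted p = 0.0164) and without Th9 replicate 2 (0.52, adjusted p = 0.0481).

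**Figure D3:**
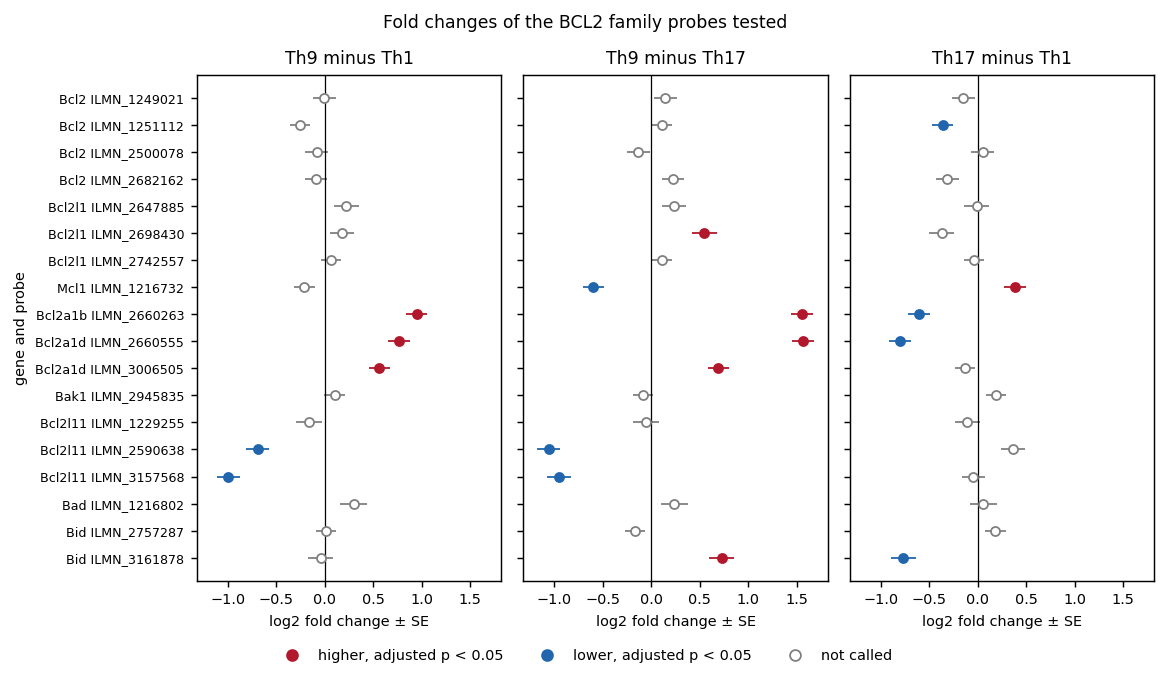
Log2 difference of each of the 18 tested member probes in the 3 comparisons, 1 panel each, with bars of 1 SE from limma; red points are called higher, blue points called lower, and open grey points are not called. The Bcl2a1b and Bcl2a1d probes are positive in both Th9 comparisons, and the 2 brightest Bcl2l11 probes are negative in both.

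Ordered by the range of their group means on the log2 scale, the member genes were Bcl2a1d (1.57), Bcl2a1b (1.55), Bcl2l11 (0.996), Bid (0.77), Mcl1 (0.60), Bcl2l1 (0.55), Bad (0.30), Bak1 (0.19) and Bcl2 (0.15). The A1 copies were neighbours at nearly the same range. This order belongs to the offset of 50, since with an offset of 16 Bid (1.24) passed Bcl2l11 (1.14) and Bcl2l1 (0.90) passed Mcl1 (0.61). Without background correction Bid (2.58) and Bak1 (2.11) had wider ranges than the A1 genes (1.93 and 1.89) and Bcl2l11 (1.28). Among 11427 named genes, those whose centred log2 values lay nearest over the 6 arrays were, for Bcl2a1d, Tnfsf13b (Euclidean distance 0.16), Trat1 (0.23) and Prxl2a (0.26), and for Bcl2a1b, Tnfrsf18 (0.17), Rap1gap (0.17) and Dab2ip (0.20). For Bcl2l11 they were Calhm6 (0.23), Prex1 (0.26) and Ly6c1 (0.30). These distances describe likeness over 6 arrays.

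Of 16 other BCL2 family genes, 9 were tested, of which 1 rose and 0 fell in Th9 against Th1 cells, 3 rose and 2 fell in Th9 against Th17 cells, and 2 rose and 3 fell in Th17 against Th1 cells. Over all genes 10%, 18.2% and 14.2% were called in these comparisons. At unadjusted p under 0.05 in limma's test, 2 rose and 1 fell in Th9 against Th1 cells. The share of all genes at that limit is not given here, so nothing is drawn from that count. Bcl2l2, which encodes the anti-apoptotic BCL-W, had 293.5 and 396.8 in Th9 cells, 206.5 and 178.7 in Th17 cells and 205.5 and 191.9 in Th1 cells, and was higher in Th9 than in Th17 cells by 0.73 on the log2 scale (adjusted p = 8.87e-05). Pmaip1, which encodes the BH3-only protein NOXA, had 60.7 and 72.8 in Th9 cells, 26.1 and 22.9 in Th17 cells and 47.2 and 33.0 in Th1 cells. It was higher in Th9 than in Th17 cells (0.57, adjusted p = 0.000718) and lower in Th17 than in Th1 cells (-0.43, adjusted p = 0.0100). Bcl2a1c, a further copy of the A1 gene, was higher in Th9 than in Th1 (0.58, adjusted p = 0.00222) and Th17 cells (0.65, adjusted p = 0.000405), at 37.4 and 55.3 in Th9 cells, 8.4 and 2.4 in Th17 cells and 12.0 and 2.4 in Th1 cells. Bik, another BH3-only gene, was higher in Th17 than in Th1 cells (0.46, adjusted p = 0.0131), and Bcl2l2 was lower there (-0.43, adjusted p = 0.0159).

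Downstream of the mitochondria, 13 of 17 genes of the cytochrome c and caspase list were tested. In Th9 against Th1 cells 0 were called by limma, where 10% of all genes were called. An unadjusted p of 0.05 was passed by 4, of which 2 rose and 2 fell. The share of all genes at that limit is not given here, so nothing is drawn from these 4. In Th9 against Th17 cells 4 rose and 2 fell, where 18.2% of all genes were called, and in Th17 against Th1 cells 1 rose and 4 fell, where 14.2% were. Htra2, a protease released from mitochondria, was higher in Th9 than in Th17 cells (0.73, adjusted p = 0.000133) and lower in Th17 than in Th1 cells (-0.61, adjusted p = 0.0011). Apaf1, the scaffold of the apoptosome, was higher in Th9 than in Th17 cells (0.66, adjusted p = 0.000185) and lower in Th17 than in Th1 cells (-0.43, adjusted p = 0.0117). Casp6, an executioner caspase, ran the other way, lower in Th9 than in Th17 cells (-0.59, adjusted p = 0.000563) and higher in Th17 than in Th1 cells (0.58, adjusted p = 0.000946).

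Among death receptor genes, 11 of 12 were tested, with 1 higher and 1 lower in Th9 against Th1 cells, 2 higher and 1 lower in Th9 against Th17 cells, and 1 higher and 2 lower in Th17 against Th1 cells. Over all genes 10%, 18.2% and 14.2% were called, and nothing particular to this list is drawn from so few genes. Fasl, the ligand of the Fas receptor, had 57.4 and 54.6 in Th9 cells, 4.6 and 3.1 in Th17 cells, where it was not above background, and 130.8 and 84.4 in Th1 cells. It was lower in Th9 than in Th1 cells (-0.79 ± 0.11, adjusted p = 7.48e-05), at least 1.69-fold higher in Th9 than in Th17 cells (adjusted p = 2.77e-05) and at least 2.92-fold lower in Th17 than in Th1 cells (adjusted p = 6.38e-09). Such bounds set the bright kind's mean against, per array, the higher of the probe's own normalized value and the lowest of any probe above background. Fadd, the adaptor between Fas and caspase-8, was higher in Th9 than in Th1 (0.68, adjusted p = 0.000497) and Th17 cells (0.47, adjusted p = 0.00798). Cflar, an inhibitor of caspase-8, was lower in Th9 than in Th17 cells (-0.54, adjusted p = 0.00135) and higher in Th17 than in Th1 cells (0.48, adjusted p = 0.00486). Cyld, a deubiquitinase of the same signalling complexes, was lower in Th17 than in Th1 cells (-0.43, adjusted p = 0.0247).

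Of 23 upstream regulators of the family, such as cytokine receptors and transcription factors, 20 were tested. In Th9 against Th1 cells 3 rose and 3 fell, in Th9 against Th17 cells 3 rose and 6 fell, and in Th17 against Th1 cells 6 rose and 1 fell, where 10%, 18.2% and 14.2% of all genes were called. Il7r, the receptor of a cytokine that maintains Bcl2 in T cells, had 708.5 and 834.6 in Th9 cells, 2250.6 and 2482.0 in Th17 cells and 870.4 and 618.6 in Th1 cells. It was lower in Th9 than in Th17 cells (-1.43, adjusted p = 2.90e-08) and higher in Th17 than in Th1 cells (1.22, adjusted p = 4.99e-07), while the brightest Bcl2 probe had no call in either comparison. Il6ra was lower in Th9 than in Th17 cells (-2.02, adjusted p = 6.88e-11) and higher in Th17 than in Th1 cells (2.35, adjusted p = 1.26e-11). Egr2, an antigen receptor response factor, had 135.2 and 151.1 in Th9 cells, 27.5 and 36.3 in Th17 cells and 2.4 and 6.6 in Th1 cells, and was higher in Th9 than in Th1 (1.56, adjusted p = 7.77e-09) and Th17 cells (1.12, adjusted p = 3.31e-07). Egr1, from the same family, was higher in Th9 than in Th1 cells (1.18, adjusted p = 2.66e-07) and in Th17 than in Th1 cells (0.80, adjusted p = 3.64e-05). Il2rg, the shared chain of the IL-2, IL-7 and IL-9 receptors, was lower in Th9 than in Th1 cells (-0.48, adjusted p = 0.0102).

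**Figure D4:**
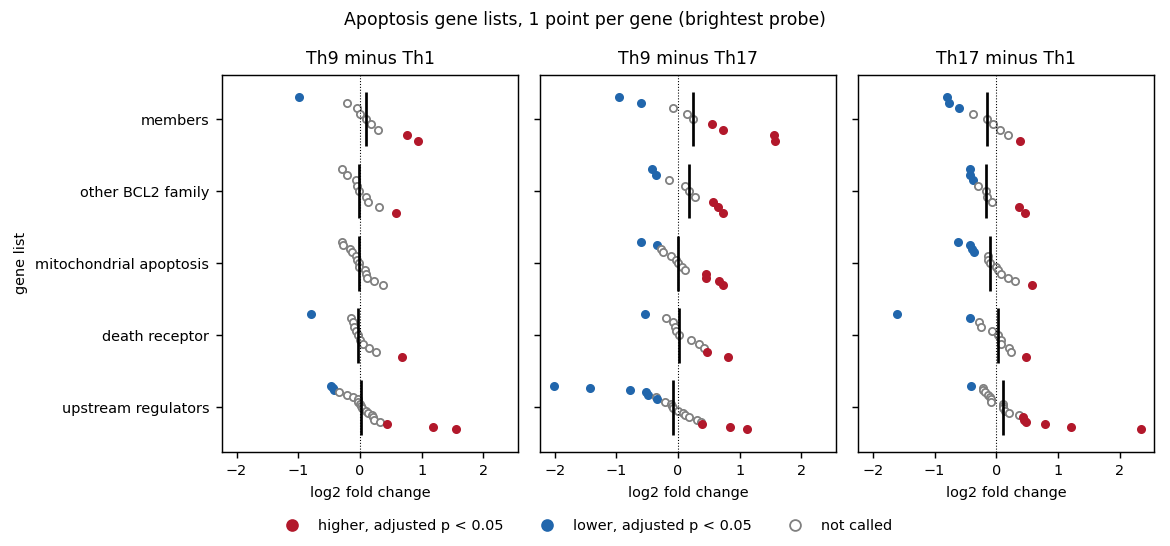
Log2 difference of the brightest tested probe of each gene in the members and the other 4 pathway lists, with 1 panel per comparison, 1 point per gene (red called higher, blue called lower, open grey not called) and a bar at the median of each list. Members and other lists hold genes that were higher and genes that were lower, and the largest differences are Il6ra between Th17 and each other kind.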

How the data were processed

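The authors' deposited table held intensity values for 45281 probes on the 6 arrays. Values below 0 and medians of 3.7 to 4.8 per array show a subtracted background; the method of subtraction, the scanning software and any scaling are not given in the sources used here. A further 12 columns of per-sample values in the non-normalized table could not be tied to a sample and were not used, so a noise limit replaced detection p-values: 1.645 times the root mean square of an array's values below 0. Probes above it on at least 2 arrays were kept. With R 4.3.3 and limma 3.58.1, intensities were corrected by normexp (offset 50), quantile-normalized, log2-transformed and fitted in 1 linear model over the 3 kinds with 2 arrays each, with 3 residual and 15.6 prior degrees of freedom. Standard errors of member differences were 0.10 to 0.14, and the number of arrays limits precision. Adjusted p-values were Benjamini-Hochberg values over all 22460 kept probes in each comparison, threshold 0.05.

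Symbols came from the platform's probe table, updated through gene identifiers, accessions and synonyms. Promoter windows came from RefSeq (GRCm38.p6), aligned with Biopython 1.88. Every member is described. Of each other list, up to 3 called genes per comparison with the largest change are named, and of the marker lists some further genes. Genes of like pattern are those nearest to the 3 members of widest range. The members and lists were chosen with earlier results of these data known. Fits were tested on simulated data. Alternatives changed the offset, background correction, scaling, filter, probes per gene, arrays fitted and variance prior, or left out each array; a replicate block was added after seeing the data.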

Additional observations from a re-analysis of the deposited data

How the results depend on the processing

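Of 54 differences (18 member probes in 3 comparisons), 0 that were called reversed under any alternative. Most of the 54 were not called in the main fit, so keeping a side of the threshold often meant staying uncalled. Without background correction 13 calls were lost and 1 was gained. With an offset of 16, 53 kept their side of the threshold, with median scaling 50, with no filter on dim probes 54, with a trended robust prior 54, with only the compared kinds fitted 53, and without background correction 40; leaving out 1 array kept 51 to 53. The probes called over the whole array numbered 1763 for Th9 against Th1, 957 with an offset of 16 and 263 without background correction; 3355 for Th9 against Th17, 2226 and 745; and 2635 for Th17 against Th1, 1511 and 387, and 4078 with median scaling. Member probes called without background correction numbered 1 for Th9 against Th1, 4 for Th9 against Th17 and 1 for Th17 against Th1. With 1 probe a gene 3 were called for Th9 against Th1. Apart from the smaller number of probes in that last setting, the cause was not tested. The 1 call for Th9 against Th1 without background correction was the dim Bcl2 probe ILMN_1251112 (-2.90, adjusted p = 0.0398), which the main fit did not call. The 5 Th9 against Th1 calls of the main fit were all lost there. Leaving out 1 array at a time gave 1066 to 1780 probes and 5 to 6 member probes called for Th9 against Th1, 2040 to 3937 and 7 to 8 for Th9 against Th17, and 1384 to 2627 and 3 to 6 for Th17 against Th1, the lowest member count without Th1 replicate 1, Th17 replicate 1 or Th17 replicate 2. The remaining array of a kind was then assumed to vary like the others. Median scaling moved the called split to 2084 higher and 272 lower for Th9 against Th1, against 914 and 849 with quantile normalization, and to 3700 and 378 for Th17 against Th1, against 1339 and 1296. The labels mark the second array of each kind as a repeat, without saying that it shares a batch or mouse with the repeats of other kinds, and across probes the repeat minus first differences of the kinds correlated at -0.03 to 0.02. A replicate block of first against repeat arrays, chosen after seeing the data, gave 1703 probes and 5 member probes called for Th9 against Th1, 3261 and 8 for Th9 against Th17, and 2570 and 6 for Th17 against Th1, where the added member was Bcl2l11 ILMN_2590638 (adjusted p = 0.0397). Members near background (Bak1, the dim Bcl2, Bcl2l1 and Bid probes) limit what a missing call can show.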
